A study of Mus musculus with 13 samples.

Results

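The genes described here serve MHC class I presentation in mouse mammary fibroblasts. The 10 members, of 32285 genes counted, were chosen by symbol: H2-K1, H2-D1, B2m, Tap1, Tap2, Tapbp, Psmb8, Psmb9, Nlrc5 and Cd274. All 10 were found in the files, and all 10 passed the filter on low counts in each test below. Levels are UMI counts (unique transcript molecules) summed over the fibroblasts of a library and given as UMIs per 1000000 (CPM).

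The study profiled female mammary stroma by droplet single-cell RNA sequencing of transcript 3′ ends, in 13 libraries. Wildtype C57BL/6 mice gave 1 library for each of 5 stages, namely puberty (4 weeks), adult virgin (9 weeks), day 14.5 of pregnancy, day 10 of lactation and day 4 of involution. Mice of the same strain, 9 weeks old, carried placebo or MPA+E (medroxyprogesterone acetate with estradiol), with 2 libraries per group. These 9 libraries came from stromal cells sorted as Lineage- and CD24-, each pooled from 2 females. The lineage gate removes cells with the endothelial protein CD31, the leukocyte protein CD45 or the erythroid protein TER-119. The other 4 libraries came from GFP+ cells, sorted with the same lineage gate, of raGFP-Wnt1 mice (Pdgfra-GFP KI/+ MMTV-Wnt1 T/+, a mixed C57BL/6 and FVB background). In these mice the mammary tumour virus promoter drives Wnt1 and GFP reports the Pdgfra locus. A tumour and a hyperplastic gland were taken from each of 2 mice, aged 45 weeks (mouse 1) and 17 weeks (mouse 2). Strain, sorting gate, age and disease cannot be told apart between the raGFP-Wnt1 and the C57BL/6 libraries.

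MHC class I molecules show peptides from inside a cell to CD8+ T cells. The immunoproteasome cuts proteins into peptides, the TAP transporter carries these into the endoplasmic reticulum, and tapasin helps to load them onto a heavy chain paired with beta-2 microglobulin. Nlrc5 is a transactivator of class I genes, and Cd274 encodes PD-L1, a ligand that restrains T cells; both, like the rest of the pathway, are known to respond to interferons.

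Of the 10 members, 7 lie in the MHC region of chromosome 17, between 33915899 (Tapbp) and 35267499 (H2-D1) on GRCm38. B2m lies on chromosome 2, Nlrc5 on chromosome 8 and Cd274 on chromosome 19. Promoter windows of 300 bases, from 250 before to 50 after the annotated start (RefSeq, GRCm38.p6), were found for 8 members. The windows of Tap1 and Psmb9 share 275 bases on opposite strands, so these genes start from 1 stretch of DNA. The windows below belong to members that rose under MPA+E, and the Tap1 window stands for Psmb9 as well. Capitals mark matches, on either strand, to 5 motifs.
H2-K1, chr17:34000298-34000597, minus strand: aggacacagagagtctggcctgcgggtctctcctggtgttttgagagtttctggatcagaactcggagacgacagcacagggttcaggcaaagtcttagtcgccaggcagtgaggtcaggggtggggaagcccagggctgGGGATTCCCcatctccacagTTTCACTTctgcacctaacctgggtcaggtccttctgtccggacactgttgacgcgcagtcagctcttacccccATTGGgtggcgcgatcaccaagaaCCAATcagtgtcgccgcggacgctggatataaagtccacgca
H2-D1, chr17:35262844-35263143, plus strand: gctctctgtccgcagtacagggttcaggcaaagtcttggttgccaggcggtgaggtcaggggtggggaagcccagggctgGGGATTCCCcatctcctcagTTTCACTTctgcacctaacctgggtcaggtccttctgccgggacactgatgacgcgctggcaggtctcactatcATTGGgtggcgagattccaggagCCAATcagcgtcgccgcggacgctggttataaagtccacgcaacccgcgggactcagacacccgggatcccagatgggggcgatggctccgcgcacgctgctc
B2m, chr2:122147437-122147736, plus strand: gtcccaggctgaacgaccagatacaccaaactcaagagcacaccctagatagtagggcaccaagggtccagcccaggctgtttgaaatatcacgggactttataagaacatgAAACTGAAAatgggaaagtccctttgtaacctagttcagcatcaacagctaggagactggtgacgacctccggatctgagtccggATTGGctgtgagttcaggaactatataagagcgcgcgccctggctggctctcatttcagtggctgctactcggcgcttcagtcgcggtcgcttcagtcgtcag
Tap1, chr17:34187306-34187605, plus strand: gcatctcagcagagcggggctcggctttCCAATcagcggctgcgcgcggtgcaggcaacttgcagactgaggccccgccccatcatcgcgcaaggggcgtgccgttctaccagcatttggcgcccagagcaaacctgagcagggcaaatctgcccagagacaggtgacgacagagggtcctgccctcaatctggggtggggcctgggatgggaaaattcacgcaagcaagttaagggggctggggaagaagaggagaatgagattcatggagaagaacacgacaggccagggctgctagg
Psmb8, chr17:34197945-34198244, plus strand: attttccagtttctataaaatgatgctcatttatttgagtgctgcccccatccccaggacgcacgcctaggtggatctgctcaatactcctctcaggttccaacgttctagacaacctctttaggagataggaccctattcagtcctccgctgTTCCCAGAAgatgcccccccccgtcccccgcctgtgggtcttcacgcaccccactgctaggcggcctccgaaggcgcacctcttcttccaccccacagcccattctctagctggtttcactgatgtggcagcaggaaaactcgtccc
Cd274, chr19:29367188-29367487, plus strand: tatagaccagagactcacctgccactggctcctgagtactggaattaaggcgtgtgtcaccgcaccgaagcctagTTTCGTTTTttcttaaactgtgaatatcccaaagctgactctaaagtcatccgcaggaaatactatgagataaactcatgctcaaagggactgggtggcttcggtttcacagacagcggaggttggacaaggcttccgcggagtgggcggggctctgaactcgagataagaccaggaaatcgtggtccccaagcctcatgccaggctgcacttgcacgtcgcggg

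The first motif was TTTCNNTTT, a core of the interferon-stimulated response element (ISRE), present in 10.7% of 27025 promoter windows and in B2m and Cd274. Its shorter form TTTCNNTT, which lies within the first, was present in 24.2% of windows and also in H2-K1 and H2-D1. The interferon-gamma site TTCNNNGAA was present in 8.47% of windows and in Psmb8. GGGATTCCC, an NF-kB site, was present in 0.370% of windows and in H2-K1 and H2-D1, at -110 and -170 from the annotated start. CCAAT, the NF-Y box, was present in 37.9% of windows and in 6 of the 8 members. Both heavy chain windows hold the NF-kB and short ISRE letters in the same order, with the ISRE letters at -90 in H2-K1 and -150 in H2-D1. A match describes letters only.

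Fibroblasts numbered 4236 to 11951 per library, at a median of 3990 to 20256 UMIs per cell. They were barcodes with 500 to 7500 genes, at most 10% mitochondrial UMIs, at least 50 UMIs of Dcn, Lum and Col1a2 per 10000, and no UMI of Epcam, Pecam1, Rgs5, Sox10, Ptprc or Myog. The 6 fibroblast markers together reached 26442 to 64808 CPM. The 5 endothelial markers together reached 0.648 to 10.5 CPM and the 7 immune markers 1.04 to 18.9 CPM, with Pecam1 and Ptprc at 0 by the rule. Any pair of libraries shared at most 34 barcodes. The 2 libraries of a hormone group were separate pools of 2 females, so p-values of MPA+E against placebo measure the spread between such pools. The 2 of a raGFP-Wnt1 group came from separate mice of unlike age. Their main fit also held the puberty and adult libraries as 1 normal group. Its p-values therefore rest on a pooled spread that takes in the stage difference and the difference in age. In sums over cells, fewer cells with a high level and less RNA per cell cannot be told apart.

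**Figure D1:**
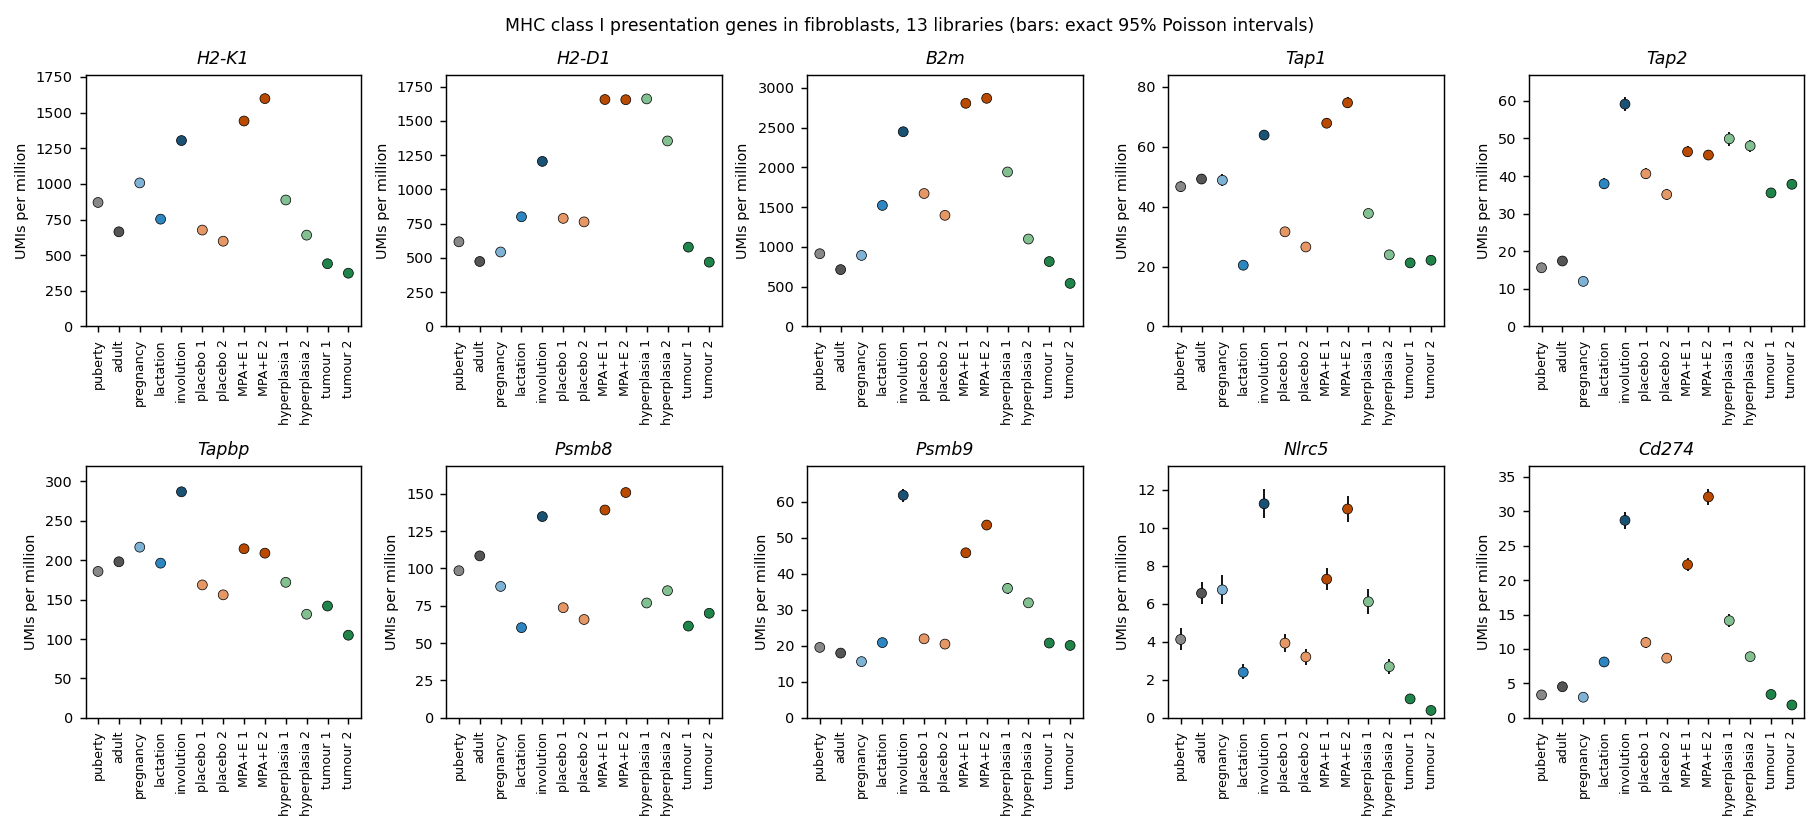
CPM (vertical axes, linear from 0) of each member in the fibroblasts of 13 libraries (horizontal axes); bars are exact 95% Poisson intervals, mostly narrower than the points. Involution and the 2 MPA+E libraries stand highest for 7 of the 10 members; the exceptions are Tapbp, where pregnancy stands above MPA+E, and H2-D1 and Tap2, where a hyperplasia library does.

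Across the 5 stages, all 10 members were highest in involution, when the milk-producing epithelium dies back. With 1 library per stage there is no test, and the intervals of the ratios below cover counting error only. Of 7809 genes with a mean of at least 10 CPM over the stages, 16.4% had a highest stage at least 2 times the lowest, and 4.41% had this with involution highest. Of the 8 members in that class 6 had it, and Nlrc5 and Cd274, below 10 CPM, had it too.

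H2-K1, a classical heavy chain, stood at 869 CPM in the puberty library, 664 in the adult one, then 1007 in pregnancy, 753 in lactation and 1304 in involution. Involution stood 1.96 times over the adult (95% interval 1.94 to 1.99). H2-D1, the other classical heavy chain, stood at 618, 474, 543, 800 and 1204 CPM in the same order, 2.54 times higher in involution than in the adult (2.51 to 2.57). The heavy chains thus differed in the stage next to involution, which was pregnancy for H2-K1 and lactation for H2-D1. B2m, the light chain, stood at 915, 715, 894, 1522 and 2448 CPM, and involution stood 3.42 times over the adult (3.39 to 3.46).

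Against the adult library, the subunits of the peptide transporter parted in lactation. Tap1 stood at 46.7 CPM in puberty, then 49.2 (adult), 48.8 (pregnancy), 20.5 (lactation) and 63.9 (involution). Tap2 stood at 15.6, 17.4, 11.99, 37.9 and 59.1 CPM in the same order. Lactation was the lowest stage for Tap1, at 0.416 times the adult (0.390 to 0.443), and next to involution for Tap2, at 2.18 times the adult (2.04 to 2.33). For Tap1, pregnancy did not differ beyond counting error from the adult or from puberty. Tapbp, which encodes tapasin, varied least of the 10, from 186 CPM in puberty to 287 in involution, a ratio of 1.54 (1.51 to 1.58).

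Psmb8 and Psmb9, both catalytic subunits of the immunoproteasome, also differed in lactation against the adult library. Psmb8 stood at 98.4, 108, 87.9, 60.3 and 135 CPM from puberty to involution, lowest in lactation. Psmb9 stood at 19.5, 18.0, 15.6, 20.9 and 61.8 CPM, lowest in pregnancy, with lactation and puberty not apart beyond counting error. The 9-week placebo libraries lay on the same side of the adult as lactation, with Psmb8 at 73.7 and 65.8 CPM and Psmb9 at 21.9 and 20.5. This difference was thus not particular to lactation. Involution stood over lactation 2.23 times for Psmb8 (2.15 to 2.32) and 2.96 times for Psmb9 (2.78 to 3.15).

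The transactivator Nlrc5 followed Tap1 and Psmb8, with 4.13, 6.55, 6.73, 2.40 and 11.3 CPM and its lowest level in lactation. Its involution level stood 4.70 times over lactation (3.95 to 5.63), and pregnancy and adult did not differ beyond counting error. Cd274 had the widest range, with 3.32, 4.51, 2.99, 8.11 and 28.7 CPM. Involution stood 9.60 times over pregnancy (8.09 to 11.5) and 3.54 times over lactation (3.21 to 3.90). Tap1, Psmb8 and Nlrc5 were thus lowest in lactation, whereas lactation was next to involution for H2-D1, B2m, Tap2, Psmb9 and Cd274. In involution the endothelial markers summed to 5.69 CPM, against 1.54 to 2.54 in the other stages. Flt1 alone made 4.15 CPM of the involution sum. Cdh5 (0.713) and Emcn (0.202) stood below their puberty levels (1.11 and 0.493). The luminal markers summed to 53.6 CPM in lactation, against 0.226 to 11.1 in the other stages. Csn3 alone made 52.3 CPM of the lactation sum. Krt8 and Krt18 stood at 0.254 and 0.222 CPM in lactation, below their pregnancy levels of 6.27 and 1.98. The MHC class II genes, which antigen-presenting immune cells use, summed to 26.9 CPM in involution, against 6.26 to 9.36 in the other stages, while the 7 immune markers summed to 4.07 CPM in involution and 1.95 to 4.33 in the others. The part of these cell types in the member levels was not tested.

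The spread between libraries of like mice was wide for some members. The adult library and the placebo libraries all came from 9-week C57BL/6 mice. B2m stood at 715 CPM in the adult library and at 1671 and 1397 under placebo, and the placebo mean was 2.15 times higher. Tap2 and Cd274 were 2.17 times higher under placebo, whereas Tap1, Psmb8 and Nlrc5 stood at 0.591, 0.644 and 0.544 times the adult. Of 7728 genes at 10 CPM or more, 2.77% differed by at least 2 times between the adult library and the placebo mean, as did 2 of the 8 members measured there. Set against the placebo mean, lactation stood at 0.992 times for B2m, 1.002 times for Tap2, 1.03 times for H2-D1 and 0.827 times for Cd274, where it had stood at 2.13, 2.18, 1.69 and 1.80 times the adult. Tap1 and Nlrc5 stood at 0.703 and 0.672 times the placebo mean in lactation, against 0.416 and 0.366 times the adult, and Psmb8 at 0.865 against 0.557 times. The lactation ratios of these 7 members therefore moved by over 1.5 times with the 9-week virgin libraries taken as reference. Involution stood over the placebo mean for every member, from 1.55 times (H2-D1) to 3.16 times (Nlrc5). The reference moved these ratios too. B2m stood at 1.60 times the placebo mean against 3.42 times the adult, and H2-D1 at 1.55 against 2.54. H2-K1, Tap1, Tapbp, Psmb8 and Nlrc5 went the other way, such as Nlrc5 at 3.16 against 1.72 times.

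The comparison of MPA+E with placebo asked how ovarian hormones change fibroblasts. Of the 10 members 7 rose under MPA+E, at an adjusted p under 0.05 (edgeR quasi-likelihood test, Benjamini-Hochberg over 15642 genes), where 4.33% of all genes were called in either direction. None fell. The members' median log2 fold change was 1.17, beside 0.01 over all genes tested. In all 10 the 2 MPA+E libraries lay above the 2 placebo libraries. The share of all genes split in this way was not counted. The pericyte markers summed to 23.1 and 22.1 CPM under placebo and to 13.9 and 14.2 under MPA+E, and the endothelial markers to 0.648 and 0.915 against 1.08 and 1.15; their part was not tested.

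H2-K1 stood at 676 and 598 CPM under placebo and at 1441 and 1598 CPM under MPA+E. Its log2 fold change was 1.27 ± 0.14 (SE, 2 libraries per group, adjusted p = 0.0159). H2-D1 stood at 789 and 763 CPM against 1655 and 1654, a log2 fold change of 1.104 ± 0.12 (edgeR adjusted p = 0.0161). Both heavy chains thus rose, by 2.41-fold and 2.15-fold, with libraries of a group closer to each other than to the other group. B2m rose from 1671 and 1397 to 2805 and 2868 CPM, a log2 fold change of 0.90 ± 0.14 (edgeR adjusted p = 0.0348).

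Tap1 rose from 31.6 and 26.5 CPM to 67.9 and 74.7 CPM, with a log2 fold change of 1.31 ± 0.12 (edgeR adjusted p = 0.0105). Its partner Tap2 did not pass, with placebo libraries at 40.6 and 35.1 CPM and MPA+E libraries at 46.5 and 45.6 (log2 fold change 0.30 ± 0.09, edgeR adjusted p = 0.165). Tapbp, at 169 and 156 CPM against 215 and 209, did not pass either (0.40 ± 0.09, edgeR adjusted p = 0.103). The transporter subunits therefore moved by unequal amounts; that difference was not tested.

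Psmb8 rose from 73.7 and 65.8 CPM to 139 and 151 CPM, a log2 fold change of 1.07 ± 0.11 (edgeR adjusted p = 0.0139). Psmb9 rose from 21.9 and 20.5 CPM to 45.8 and 53.5 CPM, a log2 fold change of 1.24 ± 0.13 (edgeR adjusted p = 0.0147). The immunoproteasome subunits rose by 1.07 and 1.24 on the log2 scale, and the difference between them was not tested. Nlrc5 stood at 3.93 and 3.20 CPM in placebo against 7.30 and 10.99 in MPA+E libraries, a log2 fold change of 1.38 ± 0.26 that did not pass (edgeR adjusted p = 0.0596). Cd274 rose from 10.9 and 8.67 CPM to 22.2 and 32.1 CPM, the largest change of the 10 (log2 fold change 1.496 ± 0.23, edgeR adjusted p = 0.0366). Left without either placebo library, the test called no member, with 22 genes called in all without placebo 1 and 42 without placebo 2.

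Other genes of the pathway moved in part. Among other class I heavy chains, 5 of 11 tested rose and none fell, led by H2-Q7 (log2 fold change 2.61), H2-Q6 (2.59) and H2-T22 (1.81). These genes are close copies of each other, so their own levels are uncertain. Among interferon signalling genes, Stat2 (1.27), which carries interferon signals to the nucleus, rose, and 21 were not called. Of 16 interferon-induced genes 10 rose, led by Ifi44 (4.03), Rsad2 (3.27) and Ifit3 (2.77). The checkpoint ligands Cd80 (2.43) and Lgals9 (0.90) rose among 10 tested. None of 12 genes of peptide loading and trimming, of 10 partners of the proteasome and of 6 MHC class II genes was called by edgeR.

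Within libraries, members were compared between fibroblasts with interferon marker transcripts and those without. Each barcode was thinned to 2000 UMIs, and those with at least 2 UMIs of 11 interferon-induced genes (Ifit1, Isg15, Rsad2 and others, no member among them) were called interferon-marked and set against those with 0. All 10 members were higher in interferon-marked fibroblasts (edgeR with the library as a block, 9 C57BL/6 libraries, adjusted p at most 0.00468), where 28.6% of all genes were called. Each member was higher in the marked cells of 9 of 9 libraries.

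Nlrc5 differed most, by 2.01 ± 0.16 on the log2 scale, and stood 2.52 to 8.48 times higher in marked cells. Cd274 differed by 1.85 ± 0.19, and Tap1 by 1.54 ± 0.10 with ratios of 2.22 to 4.68. Psmb9 (1.40 ± 0.19), Psmb8 (1.30 ± 0.15) and H2-K1 (1.0995 ± 0.20) followed. The abundant chains H2-D1 and B2m differed by 0.93 ± 0.18 and 0.84 ± 0.13. Tap2 (0.63 ± 0.08) and Tapbp (0.52 ± 0.09) differed least, as they did between MPA+E and placebo. In the 5 stage libraries alone all 10 were called again.

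Interferon-marked fibroblasts made up 28.4% and 24.1% of thinned barcodes under placebo and 69.8% and 68.2% under MPA+E. Across the stages the share ran from 12.6% in lactation to 48.6% in pregnancy, with 31.8% in involution. The stage with the highest member levels was therefore not the one with the most marked cells. Within marked cells, H2-K1 stood at 936 and 801 CPM under placebo and at 1740 and 2002 under MPA+E. Within unmarked cells it stood at 498 and 500 CPM under placebo and at 400 and 405 under MPA+E. Marked cells were thus higher under MPA+E, while unmarked cells were not.

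**Figure D2:**
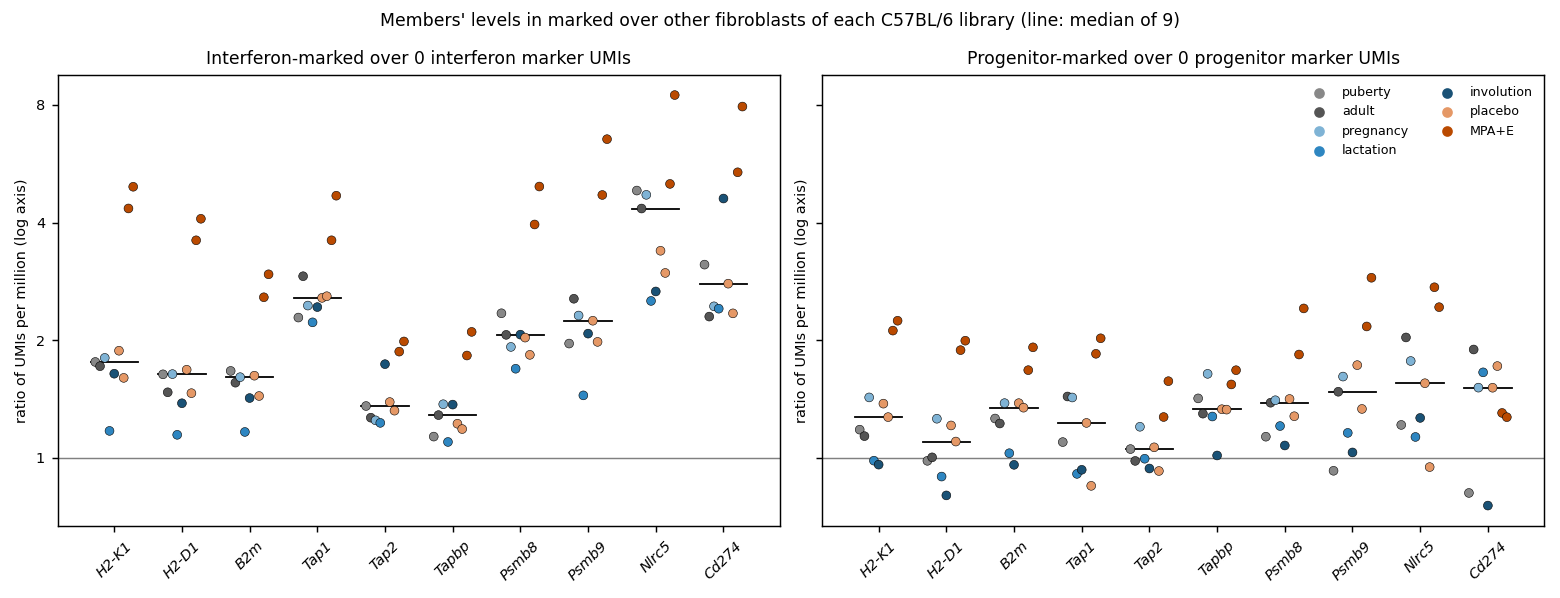
Ratio of CPM in marked over other fibroblasts (vertical axes, log scale) for each member in the 9 C57BL/6 libraries, with interferon-marked cells at left and progenitor-marked cells at right; each point is 1 library and lines are medians. The 2 MPA+E libraries have the highest H2-K1 ratios in both panels, and every interferon ratio lies above 1.

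In sums over interferon-marked fibroblasts alone, MPA+E against placebo still called H2-K1 (log2 fold change 1.09), H2-D1 (0.98), Psmb9 (0.94), Tap1 (0.83) and Psmb8 (0.79) by edgeR. The share of all genes called in these marked sums is not given here, so these calls cannot be set against it. In sums over fibroblasts with 0 interferon marker UMIs, no member was called. There 9 of the 10 had a log2 fold change below 0, from -0.48 (Psmb9) to -0.10 (B2m), and Tap1 stood at 0.14. These unmarked sums held 1123 called genes of 13754 tested. Cells were sorted here by transcripts that themselves rose under MPA+E, so marked and unmarked cells were not chosen alike in both groups.

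**Figure D3:**
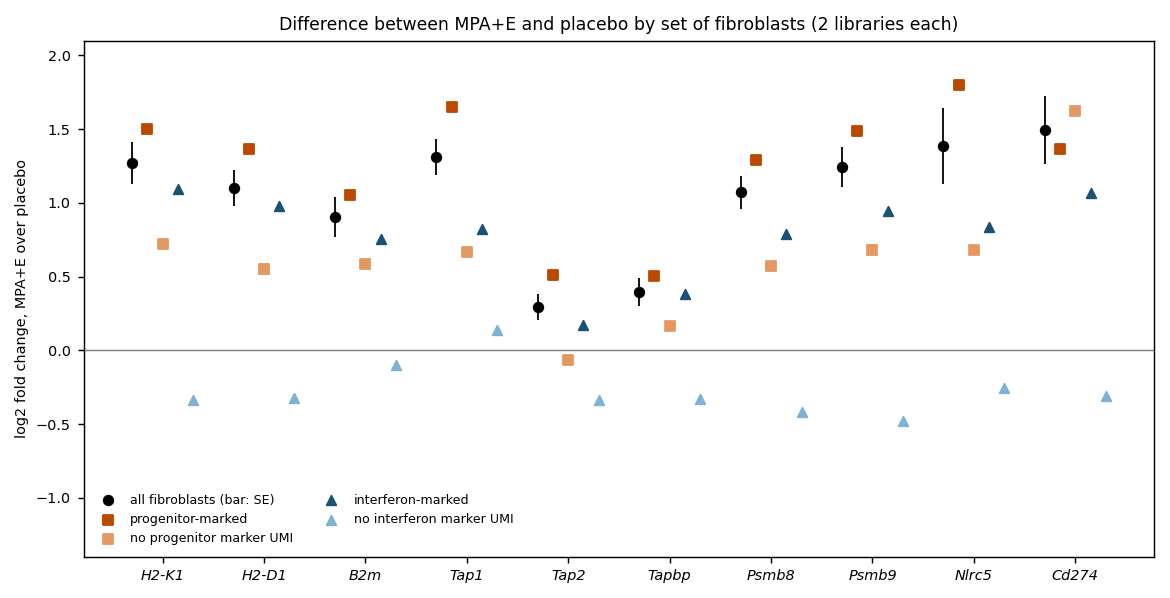
Log2 fold change between MPA+E and placebo (vertical axis) for each member in all fibroblasts (black, with SE) and in 4 sets of fibroblasts cut by marker UMIs, 2 libraries per group. In fibroblasts without an interferon marker UMI, 9 of the 10 members lie below 0, whereas in all other sets H2-K1 lies at 0.72 or above.

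Another split used markers of progenitor fibroblasts, a state the study follows across stages. Barcodes with at least 2 UMIs of Pi16, Dpp4, Sema3c, Anxa3 and Cd55 after thinning were set against those with 0. This rule marked 46.4% (MPA+E 1) to 66.8% (pregnancy) of thinned barcodes in the 9 libraries. Of the 10 members 8 were higher in progenitor-marked fibroblasts (edgeR, 9 libraries), where 56.8% of all genes were called in either direction. Nlrc5 (0.74 ± 0.16), Psmb9 (0.63 ± 0.16) and Psmb8 (0.54 ± 0.12) differed most on the log2 scale. Tapbp and Psmb8 were higher in 9 of 9 libraries, B2m, Psmb9 and Nlrc5 in 8, H2-K1 and Cd274 in 7 and Tap1 in 6. In involution the ratio of marked over other cells lay below 1 for 6 members, from 0.754 (Cd274) to 0.960 (H2-K1). H2-D1 (0.27 ± 0.14) and Tap2 (0.17 ± 0.09) were not called. In the 5 stage libraries alone only Tapbp, Psmb8 and Nlrc5 were called, and the share of all genes called there is not given here. That test also had fewer libraries, so it cannot tell whether the other 5 calls rested on the hormone libraries.

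The change under MPA+E was larger in progenitor-marked than in other fibroblasts for 5 members, by a test of the difference (edgeR, 14830 genes, 4.84% called). Marked cells made up 50.9% and 53.2% of thinned barcodes under placebo and 46.4% and 49.7% under MPA+E. The paper reports a lower Pi16 signature in progenitors after MPA+E, so marked cells may not be chosen alike in both groups. H2-K1 stood at 760 and 644 CPM in marked cells under placebo and at 1861 and 2029 under MPA+E. In cells without these markers it stood at 552 and 507 CPM against 880 and 905. The changes differed by 0.75 ± 0.08 on the log2 scale (edgeR adjusted p = 0.00489). In sums over the cells without these markers alone, MPA+E against placebo called no member, with H2-K1 at a log2 fold change of 0.72 (edgeR adjusted p = 0.0883). For H2-D1, Tap1, Psmb8 and B2m it differed by 0.78, 0.95, 0.68 and 0.43. In the same test 5 of 11 other class I heavy chains, led by H2-Q7 (1.12), and 5 of 16 interferon-induced genes, led by Iigp1 (1.16), Ifi44 (1.11) and Ifit3 (1.06), also had a larger change in progenitor-marked cells. Cd274 lay in the other direction and did not pass, with a difference of -0.29 ± 0.13 (edgeR adjusted p = 0.255). Without placebo 2 no member was called in this test, and without placebo 1 it called 3.

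In the raGFP-Wnt1 mice, every member was lower in the tumour than in the hyperplastic gland of the same mouse, in both mice. The share of all genes lower in both mice was not counted. Some falls were slight, such as Tap1 in mouse 2, with hyperplasia at 1.08 times the tumour. Of the 10, 5 fell past the threshold (limma-voom, adjusted p under 0.05), where 29.3% of 16302 genes were called in either direction. With the mouse as a block the test called 6, adding B2m. Left without either hyperplasia library, the test without the block called none, and without tumour 2 it called 3. H2-K1 was not called without the puberty or the adult library, which enter the same fit.

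H2-K1 stood at 887 and 640 CPM in the hyperplastic glands of mice 1 and 2 and at 440 and 374 in their tumours. Its log2 fold change was -0.90 ± 0.25 (limma adjusted p = 0.0392). H2-D1 stood at 1660 and 1353 CPM against 579 and 469, a log2 fold change of -1.52 ± 0.24 (limma adjusted p = 0.0105). The hyperplasia level of H2-D1 was 2.87 and 2.88 times that of the tumour in mice 1 and 2. B2m stood at 1942 and 1099 CPM against 816 and 542, and its log2 fold change of -1.14 ± 0.35 passed only with the mouse as a block (limma adjusted p = 0.0514 without and 0.0201 with it).

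Among the genes of peptide supply only Psmb9 passed. Tap1 stood at 37.7 and 23.9 CPM in hyperplasia and 21.2 and 22.1 in tumours, and Tap2 at 49.9 and 48.0 against 35.5 and 37.8. Neither passed, nor did Tapbp or Psmb8, whose hyperplasia levels were 1.21 to 1.25 times those of the tumours. Psmb9 fell from 35.9 and 31.9 CPM to 20.7 and 20.1, a log2 fold change of -0.73 ± 0.15 (limma adjusted p = 0.0194). The immunoproteasome subunits thus differed in their calls; the difference between them was not tested.

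The regulator and the ligand changed most. Nlrc5 stood at 6.11 and 2.69 CPM in hyperplasia and at 0.995 and 0.387 in tumours, which rest on 102 and 34 UMIs. Its log2 fold change was -2.62 ± 0.63 (limma adjusted p = 0.0276). Cd274 fell from 14.1 and 8.88 CPM to 3.39 and 1.86, a log2 fold change of -2.12 ± 0.37 (limma adjusted p = 0.0139). Interferon-marked cells made up 17.2% and 10.2% in hyperplasia and 7.22% and 3.36% in tumours. The immune markers summed to 4.90 and 6.61 CPM in hyperplasia and to 18.9 and 11.5 in tumours. Of these, Cd3e stood at 3.03 and 4.82 CPM in hyperplasia and at 12.7 and 2.86 in tumours 1 and 2. The endothelial markers summed to 1.79 and 1.57 CPM against 4.51 and 10.5, and the pericyte markers to 20.5 and 20.1 against 40.6 and 28.3. Of the endothelial sums Flt1 alone made 1.42 and 1.33 CPM in hyperplasia and 4.32 and 10.3 in tumours. Cdh5, Cldn5 and Emcn each stood at or below 0.283 CPM in these libraries. The sort removes CD31 and CD45 cells; the part of any that remained in the differences was not tested.

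**Figure D4:**
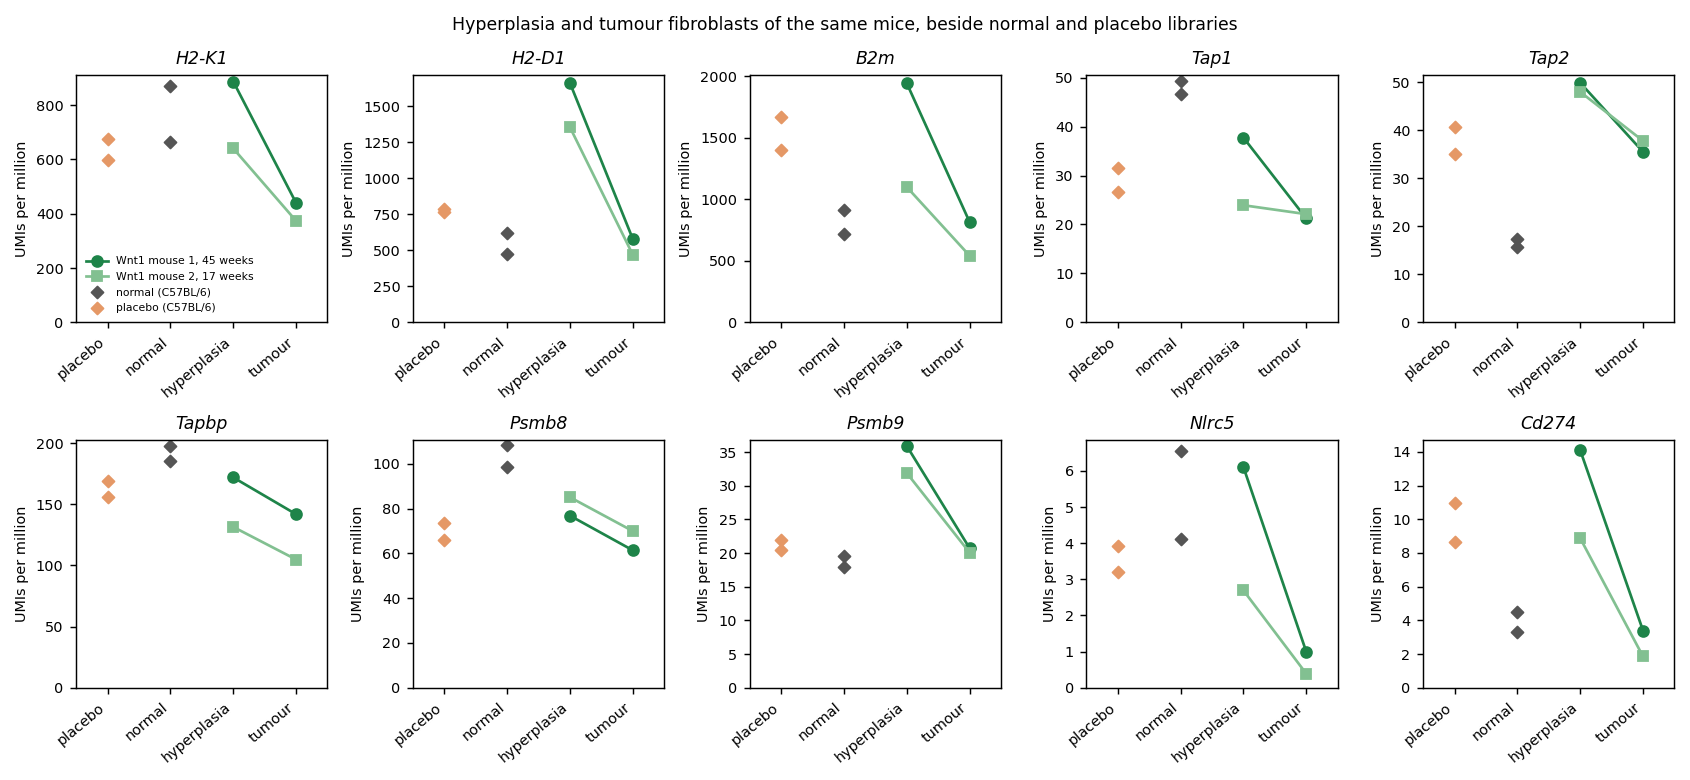
CPM (vertical axes, linear from 0) of each member in hyperplastic glands and tumours, joined by lines within each of 2 raGFP-Wnt1 mice, beside the puberty and adult (normal) and the 2 placebo libraries of C57BL/6 mice. All 20 lines fall from hyperplasia to tumour, some only slightly. The placebo and the normal libraries do not overlap for any member but H2-K1. The shares of all genes with either pattern were not counted.

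Of other class I heavy chains 6 of 14 fell in tumours against hyperplasia and none rose, led by H2-Q10 (log2 fold change -2.17), H2-Q6 (-2.09) and H2-Q4 (-1.69). Of 16 interferon-induced genes 8 fell, with Irgm1 (-2.91), Iigp1 (-2.55) and Rsad2 (-2.26) at the head. Of 10 proteasome partners, 5 rose and none fell, among them Psma7 (0.90), Psmb5 (0.89) and Pomp (0.70). Of 6 MHC class II genes Cd74 (2.07) and H2-Ab1 (1.07) rose. Of 23 interferon signalling genes 2 rose and 3 fell (Stat2 -1.47, Irf9 -1.36, Irf2 -0.63), and of 10 checkpoint ligands Cd80 (2.73) and Nectin2 (1.89) rose with 1 more, while Icosl (-2.07) fell. Sec61a1 (0.52) alone of 12 loading genes was called.

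Against normal glands (the puberty and adult libraries), calls turned on which C57BL/6 libraries stood for normal. In hyperplasia H2-D1 (log2 fold change 1.43 ± 0.23), Tap2 (1.53 ± 0.13), Psmb9 (0.82 ± 0.15) and Cd274 (1.45 ± 0.37) were higher (limma-voom, 14% of genes called). With the placebo libraries as normal, no member was called, nor without the puberty library or either hyperplasia library, and without the adult library 1 was. In tumours H2-K1 (-0.94 ± 0.25), Tap1 (-1.18 ± 0.23), Psmb8 (-0.69 ± 0.14) and Nlrc5 (-3.10 ± 0.62) were lower and Tap2 (1.12 ± 0.13) higher, where 22.8% of genes were called. Without the puberty or the adult library the tumour test called 1 member. With placebo as normal, Nlrc5 (-2.50), Cd274 (-1.96) and B2m (-1.23) were called, all lower. The share of all genes called in that fit is not given here. Nlrc5 was thus the member called lower in tumours against either reference.

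These comparisons share their raGFP-Wnt1 libraries, and strain touches them directly. Heavy chain alleles may differ between backgrounds, and all libraries were counted against 1 reference; how this moved the H2 levels was not tested. In hyperplasia against normal, H2-Q2 was higher by 5.74 and H2-Q10 by 2.44 on the log2 scale. H2-Q2 stood at 0 to 0.0635 CPM in the 9 C57BL/6 libraries and at 0.353 to 0.815 CPM in the 4 raGFP-Wnt1 libraries, with no overlap. H2-Q10 stood at 17.7 and 24.6 CPM in hyperplasia and at 4.85 and 4.40 in tumours. In the C57BL/6 libraries it ran from 2.87 (puberty) to 34.6 CPM (lactation), so its levels overlapped between the backgrounds. In the same fit 7 of 16 interferon-induced genes were lower and none higher in hyperplasia, and 12 of 16 were lower in tumours.

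Within tumours, fibroblasts with at least 4 UMIs of the myofibroblast markers Acta2, Tagln, Lrrc15, Tnc and Postn after thinning were compared with those that had at most 1. The same rule marked 51.7% and 86.0% of fibroblasts in tumours 1 and 2 and 19.5% to 42.0% in the other 11 libraries, so it is not particular to tumours. Only B2m passed, lower by 0.55 ± 0.08 on the log2 scale (limma-voom with the tumour as a block, adjusted p = 0.0211), where 9.63% of 14683 genes were called. B2m stood at 733 CPM in marked cells and 977 in others of tumour 1, and at 521 and 789 in tumour 2. H2-D1 stood at 549 against 651 CPM and 442 against 759, and did not pass (-0.56 ± 0.13, limma adjusted p = 0.0629). H2-K1, Tap2, Psmb8, Psmb9 and Nlrc5 also stood lower in marked cells of both tumours without passing. Tapbp and Cd274 stood higher in both, with log2 differences of 0.05 and 0.23 that did not pass and that turned to -0.14 and -0.29 when cells were thinned to 4000 UMIs. The other set of tumour 2 held 220 cells.

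Detection per cell did not keep the order of the levels. After thinning to 2000 UMIs, a B2m UMI was found in 62.4% (tumour 2) to 96.2% (involution) of fibroblasts and an H2-K1 UMI in 47.9% to 81.7% of the same libraries. H2-K1 was found in 70.7% and 73.1% of cells in the MPA+E libraries, where its CPM was highest. Psmb8 was found in 11.2% (tumour 1) to 22.1% (MPA+E 2). Nlrc5 was found in 0.0737% of tumour 2 cells (exact 95% interval 0.0152% to 0.215%) and in 2.04% of involution cells. Without thinning the H2-K1 shares were 93.6% in tumour 2 and 95.8% in involution. Class I genes are used by nearly all nucleated cells, so no cell type in these libraries could serve as one that lacks them. Endothelial barcodes held at least 3 UMIs of the 5 endothelial markers and under 50 of Dcn, Lum and Col1a2 per 10000. In the 6 libraries with at least 50 endothelial barcodes, H2-K1 was 1.25 to 2.61 times higher in these than in fibroblasts. They were shallower, such as a median of 1219 UMIs against 6663 for fibroblasts in puberty and 3904 against 16827 in MPA+E 1. Cd274 rested on 1 to 6 endothelial UMIs in 4 of these libraries, too few for a ratio, and stood at 145 CPM in endothelial cells of involution on 69 UMIs.

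The genes most like the members over the 9 C57BL/6 libraries were Apod, Clec2d, Rnf114, Tent5c and Gbp5. Likeness was the Pearson correlation with the members' mean centred log2(CPM + 1), ranked over 7779 genes, and the libraries share strain and sort. Apod, which encodes a lipid-binding lipocalin, had r = 0.966, and Clec2d had r = 0.943. Rnf114 and Tent5c followed at 0.942 and 0.941, and Gbp5, an interferon-induced GTPase, at 0.929. Apod stood at 457 to 696 CPM in puberty, adult, pregnancy, lactation and placebo libraries, at 1860 in involution and at 1440 and 1328 under MPA+E. Of the members themselves Psmb9 was closest to their mean (0.987) and Tapbp, at 0.622, was the lowest of the 9 above 10 CPM.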

How the data were processed

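The authors deposited filtered matrices of raw UMI counts per gene and barcode, made with Cell Ranger 6.1.2 on mm10 per the submitters' processing notes, with no normalization; the annotation release is not given in the sources used here. The members and gene lists were chosen with earlier results of these data known. Counts were summed per library over fibroblasts and scaled to CPM. MPA+E against placebo and the sets of cells were tested with edgeR 4.0.16 (quasi-likelihood, TMM, filterByExpr; library as block for sets). Normal, hyperplasia and tumour entered 1 limma-voom fit (limma 3.58.1) over 6 libraries, where normal stands for puberty and adult, and the tumour sets with limma-voom as well. Adjusted p-values are Benjamini-Hochberg over all genes tested, with a threshold of 0.05. DESeq2 1.42.0 served as an alternative. Per the labels, hyperplasia and tumour libraries of a number came from the same mouse; their deviations from the group means correlated at 0.281 over 7866 genes. Replicates differed by more than sampling noise in all 4 groups of 2 (chi-square per degree of freedom 72.4 to 343). Intervals are exact (Poisson or binomial) and cover counting error only. The named genes were all 10 members, up to 3 called genes per list with the largest change, and 5 genes most like the members. Fits were tested on simulated counts. Scrublet (scanpy 1.11.5) was run only as an alternative, so doublets stayed in the main sums. The result of 1 gene of the interferon signalling list is not reported here.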

Additional observations from a re-analysis of the deposited data

Results flagged for a closer look

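The change under MPA+E differed between progenitor-marked and other fibroblasts for 5 members, by a test of the difference itself (edgeR quasi-likelihood test, 2 libraries per group, each giving both sets). The log2 fold change was larger in progenitor-marked cells by 0.75 for H2-K1 (adjusted p = 0.00489, edgeR), by 0.78 for H2-D1 (edgeR adjusted p = 0.00463), by 0.43 for B2m (edgeR adjusted p = 0.0288), by 0.95 for Tap1 (edgeR adjusted p = 0.0256) and by 0.68 for Psmb8 (edgeR adjusted p = 0.0337). In both MPA+E libraries the ratio of marked over other cells was above that of both placebo libraries for each of these 5 genes. The 5 were picked by the test on these same libraries, so this restates the test and adds no support. No group held 4 or more libraries, so no library was tested as standing apart within its group.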

How the results depend on the processing

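Of 170 values of members under alternatives for MPA+E against placebo, 126 kept their direction and side of the threshold, as did 115 of 150 for hyperplasia against normal, 124 of 150 for tumour against normal, 127 of 150 for tumour against hyperplasia, 40 of 40 for interferon-marked and 33 of 40 for progenitor-marked fibroblasts, 53 of 70 for the difference of the hormone effect between progenitor sets (7 lost and 10 gained a call) and 27 of 30 for the myofibroblast sets. The cause of the changes below was not tested. Leaving out 1 library moved the genes called from 22 to 900 for MPA+E against placebo (members called 0 to 8), 1 to 4810 for hyperplasia against normal (0 to 5), 910 to 5479 for tumour against normal (1 to 6), 242 to 7120 for tumour against hyperplasia (0 to 6) and 102 to 1308 for the difference of the hormone effect between sets (0 to 8); an arm left with 1 library was assumed to vary like the other groups. For MPA+E against placebo the genes called were 1358 with DESeq2 and 407 with at least 200 marker UMIs per 10000. The replicate block, where replicate numbers are shared but nothing says that they pair mice, called 2451 genes and 9 members; deviations of same-numbered libraries correlated at 0.648. For the raGFP-Wnt1 mice, the replicate block on the mouse called 4837 genes and 6 members. Alternatives chosen after seeing the data called 1064 genes in progenitor-marked cells, 197 genes and 0 members in cells with 0 progenitor markers, and 1123 genes and 0 members in cells with 0 interferon markers. In the latter the log2 change turned to -0.33 (H2-K1), -0.32 (H2-D1), -0.10 (B2m), -0.34 (Tap2), -0.33 (Tapbp), -0.42 (Psmb8), -0.48 (Psmb9), -0.26 (Nlrc5) and -0.31 (Cd274), and with 0 progenitor markers Tap2 to -0.065. Hyperplasia against normal called 4017 genes with DESeq2 and 281 genes and 0 members with placebo as normal, also added later, where H2-K1 (0.22), B2m (-0.085), Tap1 (0.023), Psmb8 (0.19) and Nlrc5 (0.12) turned; H2-K1 turned as well to 0.27 at 200 marker UMIs. With 1 library left out, H2-K1 ran from -0.29 to 0.19, turning without puberty or hyperplasia 2, and Nlrc5 from -1.03 to 0.16, turning without hyperplasia 2. Tumour against normal called 1934 genes and 2 members at 200 marker UMIs and 3 members with placebo as normal, where Tap2 (-0.066) and Psmb9 (-0.077) turned; with 1 library left out, H2-D1 ran from -0.29 to 0.15, turning without puberty or tumour 2, and B2m from -0.64 to 0.0062, turning without tumour 2. With no filter on low counts the difference of the hormone effect called 1223 genes and 8 members, and the myofibroblast sets 2 members; thinned to 4000 UMIs, Tapbp (-0.14) and Cd274 (-0.29) turned there. In the 5 stage libraries alone, progenitor marking called 3 members, with H2-D1 at -0.032, and interferon marking 1195 genes. The 30 stage ratios under alternatives ran from 1.54 to 11.03; 21 stayed within their counting intervals, 9 moved beyond them and none turned. Depth limits Nlrc5 and Cd274 most, with 34 and 142 UMIs in their lowest libraries.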
